A study of Mus musculus with 8 samples.

Results

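The genes described here are the conjugating enzymes of phase II drug metabolism, namely the UDP-glucuronosyltransferases (Ugt), the sulfotransferases (Sult) and the glutathione S-transferases (Gst, with the membrane-bound Mgst). They were chosen by name, with earlier results of these data known, as the protein-coding genes of the GENCODE M21 annotation whose symbols begin with Ugt1a, Ugt2a, Ugt2b, Ugt3a, Sult and a digit, Mgst and a digit, or Gst with a class letter (a, k, m, o, p, t or z) and a digit. This gave 67 genes, of which 66 are among the 35275 rows of the count table and 1, Ugt2a1, is not. Liver RNA came from 4 Pcx L-/- mice and from 4 littermates with the genotype Pcx f/f as controls, all male, C57BL/6, 9 weeks old and fasted for 24 h, with 1 library per mouse. Pcx encodes pyruvate carboxylase, which makes oxaloacetate from pyruvate in mitochondria. In Pcx L-/- mice a Cre recombinase driven by the Albumin promoter removed the floxed exon 10 of Pcx from hepatocytes. The libraries are of whole liver and do not show Pcx by cell type. The control mice, labelled WT, carried the floxed alleles without the recombinase, so the effect of Cre itself was not measured.

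Phase II enzymes attach a polar group to drugs, bile pigments, steroids, thyroid hormones and bile acids, which makes these compounds soluble enough for export into bile or urine. The Ugt enzymes sit in the membrane of the endoplasmic reticulum and take glucuronic acid from UDP-glucuronate, the Sult enzymes are cytosolic and take sulfate from 3'-phosphoadenosine 5'-phosphosulfate (PAPS), and the Gst enzymes join glutathione to electrophiles. Hepatocytes are a main site of all of these reactions, and several of the genes are known to be expressed at different levels in male and female mouse liver or to be induced by xenobiotics through nuclear receptors and Nrf2.

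Reads counted on genes came to between 12016242 and 20023108 per library. Counts were normalized by TMM, and normalized counts are those expected in a library of 16974510.1 effective reads, the geometric mean of the 8 libraries. All adjusted p-values, log2 fold changes (Pcx L-/- over control) and standard errors (SE) below come from edgeR's quasi-likelihood test unless another is named, and a gene was called at an adjusted p under 0.05. Pcx itself was lower in all 4 Pcx L-/- libraries, with 556 to 758 normalized counts against 14371 to 22059 in control. Library 1 of Pcx L-/- stood apart from the other 3. Among the 3632 genes called over the whole table, it was the Pcx L-/- library nearest to the control mean in 74.8%, and its TMM factor was 0.970 against 1.14 to 1.16 in the other 3 and 0.833 to 0.942 in control. It was also the only Pcx L-/- mouse numbered in the 500s, as were controls 1 and 2, while the other libraries were from mice numbered in the 800s. Results without this library are given below. The 6 hepatocyte markers chosen to check the tissue were all abundant, and 3 were lower in Pcx L-/- liver. Their summed normalized count was 1511140 to 1956610 in control and 890042 to 1325660 in Pcx L-/- liver. None of the 5 red blood cell markers was called, and their summed count was 4747 to 16715 in control and 6244 to 69307 in Pcx L-/- liver, with the highest value in library 1. Of the markers of other cell types, 1 of 8 for macrophages was higher, 1 of 5 for cholangiocytes was lower, and none of 6 endothelial, 6 stellate and 4 lymphocyte markers was called. None of these markers was at 0 over all libraries, and their part in the results below was not tested. In bulk tissue, fewer cells of a type and less RNA per cell cannot be told apart.

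In Pcx L-/- liver all called Ugt and Sult genes were lower (7 of 15 tested Ugt and 4 of 7 tested Sult genes). The called Gst genes of the mu class (4 of 7) and the omega class (2 of 2) were all higher, and the alpha and pi classes held called genes in both directions. Of the 67 genes, 45 had enough reads for the test, and 22 of the 45 (48.9%) were called, against 27.6% of the 13168 genes tested over the whole table, a comparison that is a description, since the families were picked with such results in view. Higher in Pcx L-/- liver were 8 of the 45, and 14.1% of all genes tested. Among these, Gsto2 passed the filter on reads only through its Pcx L-/- libraries. Lower were 14 of the 45, and 13.5% of all genes tested. A difference of at least 2-fold with an adjusted p under 0.05 was found for 14 of the 45 (4 higher and 10 lower), and for 7.22% of all genes tested. The values of the 2 genotypes did not overlap for 15 of the 45 (5 higher and 10 lower), and for 27.6% of all genes tested. The median log2 fold change of the 45 genes was -0.32 against -0.01 for all genes tested, and the median of its size without regard to sign was 0.76 against 0.29. Reads on all of the genes together were 0.932% of the counted reads in control and 0.757% in Pcx L-/- liver. When library 1 of Pcx L-/- was left out, 28 of 46 tested genes were called (7 higher and 21 lower), of which 21 were also called with all libraries. Between mice numbered in the 800s alone (2 controls and 3 Pcx L-/-), 26 were called (8 higher and 18 lower). Without Pcx L-/- 4, 16 were called (5 higher and 11 lower). With counts scaled by library size alone, 12 were higher and 13 lower, while among all genes called the share that was higher rose from 51.1% to 81.8%. The mice numbered in the 500s, with 1 Pcx L-/- among them, were not tested alone.

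**Figure D1:**
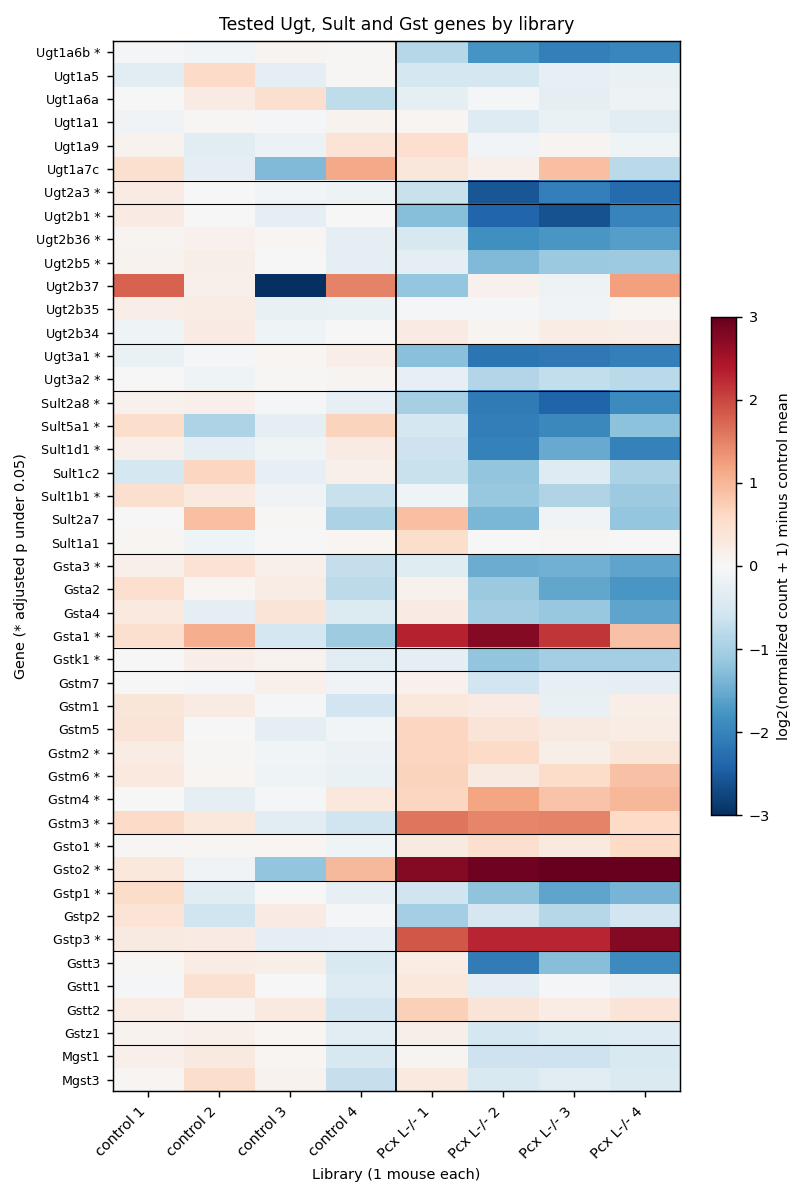
Heat map of the 45 tested genes (rows, grouped by family) in the 8 libraries (columns, 1 mouse each), as log2(normalized count + 1) minus the mean of the 4 controls, with an asterisk at genes called at an adjusted p under 0.05. In the Pcx L-/- columns the called Ugt and Sult genes, Gsta3, Gstk1 and Gstp1 are blue. The called Gstm and Gsto genes, Gsta1 and Gstp3 are red there. Other Ugt, Sult and Gstm rows, among them Ugt2b34, Sult1a1 and Gstm1, have no call. In 18 of the 22 called genes library 1 of Pcx L-/- is the one nearest to control.

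**Figure D2:**
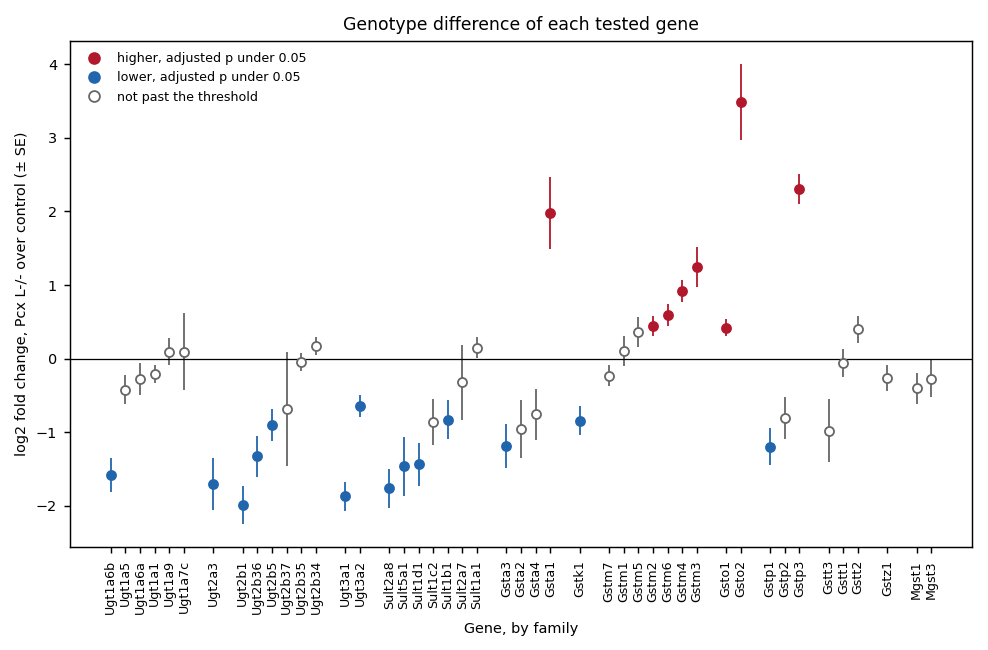
Log2 fold change of Pcx L-/- over control (vertical axis, ± SE) for each of the 45 tested genes, grouped by family along the horizontal axis. Filled points passed an adjusted p of 0.05 (8 red, higher, and 14 blue, lower), and open points did not; the values run from -1.99 for Ugt2b1 to 3.49 for Gsto2.

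The Ugt1a genes lie on chromosome 1 and differ only in their first exon, since all of them splice into the same common exons. Of 9 such genes 6 were tested, and 1, Ugt1a6b, was called. Ugt1a6 enzymes glucuronidate small planar phenols. Ugt1a6b had 529.8, 508, 575 and 553 normalized counts in controls 1 to 4 and 298, 158, 129.9 and 138 in Pcx L-/- libraries 1 to 4. The genotypes did not overlap, and the log2 fold change was -1.58 (SE 0.23, adjusted p = 0.0012), or -1.93 (adjusted p = 3.56e-06) without library 1. Ugt1a9, which conjugates bulky phenols, had the highest FPKM (reads scaled by gene length and library total) of the Ugt1a genes. Its normalized counts were 1069, 802, 881 and 1331 in control and 1426, 944, 1063 and 922 in Pcx L-/- liver. These ranges overlapped, and the log2 fold change was 0.10 (SE 0.18, adjusted p = 0.736). The 5 tested Ugt1a genes that were not called ranged from -0.42 for Ugt1a5 to 0.10 for Ugt1a7c. Among them was Ugt1a1, the enzyme that conjugates bilirubin, with 579.9, 638, 608 and 664 normalized counts in control and 646, 475, 540.5 and 493 in Pcx L-/- liver. Its log2 fold change was -0.21 with all libraries and -0.31 without library 1 (adjusted p = 0.212 and 0.0338), and 0.07 when counts were scaled by library size alone. Between 50.3% and 60.6% of the exon length of each Ugt1a gene is shared with the others on the same strand, so reads there could not be assigned to 1 gene, and 70.9% of the 100-base stretches of Ugt1a6b also occur in another gene, chiefly Ugt1a6a. How such reads were counted was not given. HTSeq leaves them out by default, in which case the FPKM of these genes, which divide by a length that includes the shared exons, are understated.

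Of the Ugt2 genes, which conjugate steroids, bile acids and many drugs, all 4 that were called were lower. Ugt2b1 (ENSMUSG00000035836, chr5:86916638-86926530) showed the largest decrease of the 45 genes. It had 4962, 4189, 3415 and 4228 normalized counts in control and 1713, 802, 678 and 1034 in Pcx L-/- liver. Every control value lay above every Pcx L-/- value, with a log2 fold change of -1.99 (SE 0.26, adjusted p = 0.000822). Ugt2a3 (ENSMUSG00000035780, chr5:87324972-87337195) had 5465, 4543, 4295 and 4131 normalized counts in control and 2884, 771, 1099 and 922 in Pcx L-/- liver. The ranges were apart, and library 1 of Pcx L-/- was above the other 3 by more than 2-fold. The log2 fold change was -1.70 (SE 0.36, adjusted p = 0.00633) and -2.31 (adjusted p = 5.39e-06) without library 1. For Ugt2b36 the values were 8257, 8537, 8142 and 6515 in control and 5566, 2171, 2324 and 2496 in Pcx L-/- liver. They did not overlap either, and the log2 fold change was -1.33 (SE 0.28, adjusted p = 0.00627). Ugt2b5, the Ugt2b gene with the highest FPKM, had 11969, 12459, 10904 and 9232 normalized counts in control and 9048, 4456, 5084 and 5211 in Pcx L-/- liver. The highest Pcx L-/- value, again of library 1, was just below the lowest control. Its log2 fold change was -0.91 (SE 0.22, adjusted p = 0.0111), and 24.7% of its 100-base stretches also occur in Ugt2b38 or Ugt2b37.

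Not every Ugt2b gene was lower. Ugt2b34 had 6829, 8825, 6841 and 7379 normalized counts in control and 8760.3, 7805, 8679 and 8458 in Pcx L-/- liver. The ranges overlapped, and the log2 fold change was 0.17 (SE 0.13, adjusted p = 0.343). With counts scaled by library size alone it was 0.46 (adjusted p = 0.0157), so whether Ugt2b34 was called higher depends on the scaling. Ugt2b35 had 2016, 2037, 1512 and 1519 and 1677, 1719.7, 1642 and 1829 normalized counts in the 2 genotypes, again with overlap, and a log2 fold change of -0.05 (SE 0.13, adjusted p = 0.822). The makeup of the family by FPKM is given as a description. Ugt2b34 made up 11.95% ± 1.46 (SD, n = 4) of the summed FPKM of the 7 Ugt2b genes in control and 24.7% ± 4.75 (SD, n = 4) in Pcx L-/- liver. Ugt2b1 made up 11.3% ± 1.70 (SD, n = 4) and 4.87% ± 0.922 (SD, n = 4). The share of Ugt2b5 was 41.1% ± 1.29 (SD, n = 4) in control and 38.4% ± 2.80 (SD, n = 4) in Pcx L-/- liver.

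The 250 bases before the RefSeq start of these genes were read from its table (GRCm38.p6), where 59 of the 67 genes have an entry. They are shown because of a pair of half-sites of the kind that the liver factor HNF1 is known to bind. The pair, GTTA and TTAAC with any 4 bases between them, was searched on both strands. It lay before all 7 Ugt2b genes and Ugt3a1 and before none of the other genes with an entry. Over all 32851 promoter windows of this length, 0.17% held it. The motif was chosen after the sequences had been read, and the Ugt2b genes are copies of each other, so the windows are not independent. Capitals mark the motif, and 27 bases that lie inside an exon of GENCODE M21 were left off the 3' end for Ugt2b1. Counted from the end of the printed window, the first base of the motif was base 62 for Ugt2b1, 64 for Ugt2b36, 61 for Ugt2b5, 73 for Ugt2b34, 70 for Ugt2b35 and 130 for Ugt3a1.
Ugt2b1, chr5:86926531-86926753, minus strand: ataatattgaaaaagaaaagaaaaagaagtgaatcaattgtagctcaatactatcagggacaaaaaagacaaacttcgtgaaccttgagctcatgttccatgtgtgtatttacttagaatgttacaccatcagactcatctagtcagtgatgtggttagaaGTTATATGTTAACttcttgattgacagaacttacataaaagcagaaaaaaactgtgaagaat
Ugt2b36, chr5:87092556-87092805, minus strand: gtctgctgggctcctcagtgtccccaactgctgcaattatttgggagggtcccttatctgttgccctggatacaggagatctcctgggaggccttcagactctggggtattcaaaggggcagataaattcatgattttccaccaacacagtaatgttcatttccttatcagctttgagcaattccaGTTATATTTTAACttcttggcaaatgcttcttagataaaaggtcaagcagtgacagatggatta
Ugt2b5, chr5:87140341-87140590, minus strand: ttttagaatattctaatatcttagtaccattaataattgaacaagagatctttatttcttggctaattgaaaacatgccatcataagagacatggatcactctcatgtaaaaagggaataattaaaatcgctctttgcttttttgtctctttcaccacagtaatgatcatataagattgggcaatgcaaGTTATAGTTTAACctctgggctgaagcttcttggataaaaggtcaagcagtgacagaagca
Ugt2b34, chr5:86906938-86907187, minus strand: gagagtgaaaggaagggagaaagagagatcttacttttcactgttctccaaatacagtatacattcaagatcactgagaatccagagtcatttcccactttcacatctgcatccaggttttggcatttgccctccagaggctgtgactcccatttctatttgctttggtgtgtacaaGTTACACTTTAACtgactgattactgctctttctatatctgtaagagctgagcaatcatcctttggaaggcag
Ugt2b35, chr5:87000610-87000859, plus strand: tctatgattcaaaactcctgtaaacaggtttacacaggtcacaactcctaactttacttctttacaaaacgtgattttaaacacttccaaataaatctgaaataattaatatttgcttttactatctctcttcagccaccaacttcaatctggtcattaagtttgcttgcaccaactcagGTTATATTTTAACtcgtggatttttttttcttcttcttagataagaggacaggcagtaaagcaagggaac
Ugt3a1, chr15:9279579-9279828, plus strand: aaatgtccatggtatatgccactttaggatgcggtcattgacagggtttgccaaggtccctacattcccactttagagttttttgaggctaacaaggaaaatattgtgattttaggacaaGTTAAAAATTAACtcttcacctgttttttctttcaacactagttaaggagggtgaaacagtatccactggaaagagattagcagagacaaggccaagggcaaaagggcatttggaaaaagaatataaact
Ugt2b1, Ugt2b36, Ugt2b5 and Ugt3a1 were lower in Pcx L-/- liver, whereas Ugt2b34, Ugt2b35 and Ugt2b37 were not called and Ugt2b38 was not tested. Genes with the motif thus fell on both sides of the threshold. The windows of Ugt2b37 and Ugt2b38 are not shown. The window of Ugt3a1 lies inside the gene as GENCODE M21 draws it. The half-site GTTAAT was held by 14 genes, and by 6.43% of all windows. Among the genes with an entry it was found in 4 of 12 called lower, 0 of 8 called higher, 4 of 20 not called and 6 of 19 not tested. More than 1 copy lay before 4 genes, namely Ugt2a3, which was lower, and Ugt1a10, Sult2a3 and Sult2a5, which were not tested. The window of Ugt2a3 is shown with both copies, whose first bases are 54 and 47 from its end, in capitals.
Ugt2a3, chr5:87337196-87337445, minus strand: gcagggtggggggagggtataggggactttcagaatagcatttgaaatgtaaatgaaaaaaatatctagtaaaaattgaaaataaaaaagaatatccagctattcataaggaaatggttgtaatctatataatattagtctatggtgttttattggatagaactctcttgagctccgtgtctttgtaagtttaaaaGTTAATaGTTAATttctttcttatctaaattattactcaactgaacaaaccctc
The antioxidant response element core TGACNNNGC, which Nrf2 binds, was held by 10.2% of all windows and lay before Gsta3, Gstm5, Gstm7 and Mgst1. The dioxin receptor core GCGTG was held by 28.2% of all windows and by the windows of 11 of the 59 genes. The STAT5 site TTCNNNGAA (7.02% of all windows) lay before Gsta1, Gstm6, Sult3a1 and Ugt1a6a, and the ATF4 and C/EBP element TGATGNAA (3.45%) before Sult1e1. Some of these short motifs can overlap, and a match describes the letters of the window only.

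Ugt2b, Ugt2a, Sult1b1, Sult1d1 and Sult1e1 are neighbours on chromosome 5, where 12 genes of the count table, and Ugt2a1, lie between 86889767 and 87591594 (701.8 kb, GRCm38). Of the 9 tested, 6 were lower and none was higher, and the genes without a call, Ugt2b34, Ugt2b35 and Ugt2b37, lay between or beside those that were lower. The 7 mu class genes lie within 149.1 kb on chromosome 3, with 4 higher, and the 3 pi class genes within 24.2 kb on chromosome 19, with 1 higher and 1 lower. Neighbours were thus not uniform in direction or size.

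**Figure D3:**
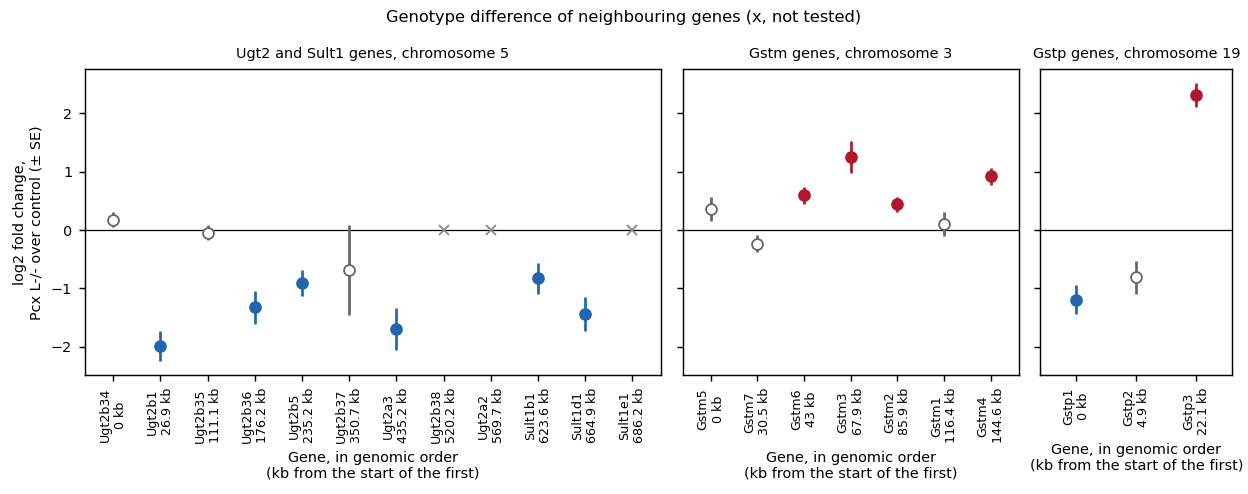
Log2 fold change of Pcx L-/- over control (vertical axis, ± SE) for genes in their genomic order in 3 groups of neighbours, each labelled with its distance in kb from the start of the first. Filled points were called (red higher, blue lower), open points were not, and crosses are genes not tested; Ugt2b1 (-1.99) lies beside Ugt2b34 (0.17), and Gstp1 (-1.19) 22.1 kb from Gstp3 (2.31).

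Both Ugt3a genes, whose human relatives use other sugars than glucuronic acid, were lower. Ugt3a1 (ENSMUSG00000072664, chr15:9276888-9315032) had 1061, 1162, 1259.7 and 1398 normalized counts in control and 506, 264, 275 and 291 in Pcx L-/- liver. The ranges were far apart, with a log2 fold change of -1.87 (SE 0.20, adjusted p = 0.000399). Ugt3a2, which made up 83.7% ± 1.24 (SD, n = 4) of the summed Ugt3a FPKM in control, had 6444, 5938, 6664 and 6859.8 normalized counts in control and 5454, 3523, 3885 and 3715 in Pcx L-/- liver. It did not overlap between genotypes and fell by less, with a log2 fold change of -0.64 (SE 0.15, adjusted p = 0.0104).

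Of the 21 Sult genes 7 were tested, 4 of them were lower and none was higher, and 8 had no read in any library. Sult2a8 (ENSMUSG00000030378, chr7:14410686-14446769), a hepatic sulfotransferase of bile acids, had 10821, 10965, 9577 and 8402 normalized counts in control and 4945, 2286, 1879 and 2615 in Pcx L-/- liver. There was no overlap, and the log2 fold change was -1.76 (SE 0.27, adjusted p = 0.00139). Sult1d1, which sulfates catecholamines and other small phenols, had 3762, 2788, 3065 and 3978 normalized counts in control and 2194, 827, 1186 and 818 in Pcx L-/- liver. The ranges did not overlap, and library 1 was the highest of Pcx L-/-, with a log2 fold change of -1.44 (SE 0.29, adjusted p = 0.00512). The remaining calls were of genes with fewer reads. Sult5a1 had 247, 88.9, 141 and 269.8 normalized counts in control and 117, 39.7, 43.5 and 71.4 in Pcx L-/- liver. Control 2 fell inside the Pcx L-/- range, and the log2 fold change of -1.46 (SE 0.40, adjusted p = 0.0199) was no longer past the threshold when control 1 or any 1 of Pcx L-/- 2, 3 and 4 was left out (adjusted p of 0.0521 to 0.0605). Sult1b1, a sulfotransferase of phenols and thyroid hormones, had 527, 467, 350.4 and 239 normalized counts in control and 348, 172, 201 and 179 in Pcx L-/- liver. These overlapped, and its log2 fold change of -0.83 (SE 0.27, adjusted p = 0.0404) lost the call in 10 of 20 alternatives.

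Sult1a1, the main phenol sulfotransferase of liver, had the highest FPKM of the family and was not called. It had 6969, 6159, 6827 and 7001 normalized counts in control and 9624, 6703, 6896 and 6681 in Pcx L-/- liver, where library 1 was above all other libraries. The log2 fold change was 0.15 (SE 0.15, adjusted p = 0.482) and 0.00 without library 1, but 0.42 (adjusted p = 0.013) when counts were scaled by library size alone, so whether it was called depends on the scaling. Between mice numbered in the 800s alone it was -0.03 (adjusted p = 0.873). By FPKM, Sult1a1 made up 43.3% ± 2.75 (SD, n = 4) of the summed Sult level in control and 73.2% ± 4.70 (SD, n = 4) in Pcx L-/- liver. Sult2a8 made up 40.8% ± 4.30 (SD, n = 4) and 17.6% ± 3.55 (SD, n = 4). The remaining tested genes without a call were Sult1c2 (-0.86, adjusted p = 0.0616) and Sult2a7 (-0.32, adjusted p = 0.684).

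The alpha class of Gst held 1 gene that was higher and 1 that was lower. Gsta3 (ENSMUSG00000025934, chr1:21240589-21265661), which conjugates aflatoxin epoxide and products of lipid peroxidation, made up 85.4% ± 2.89 (SD, n = 4) of the summed alpha FPKM in control. It had 14011, 17038, 14014 and 7686 normalized counts in control and 9774, 4506, 4685 and 4235 in Pcx L-/- liver. Control 4 was below library 1 of Pcx L-/-, so the ranges overlapped. The log2 fold change was -1.19 (SE 0.30, adjusted p = 0.0151), or -1.56 (adjusted p = 0.000435) without library 1, and without Pcx L-/- 4 the call was lost (adjusted p = 0.054). Gsta1 had few reads, with 11.8, 18.4, 5.37 and 3.39 normalized counts in control and 44.3, 61.1, 39.7 and 15.9 in Pcx L-/- liver. Control 2 was above library 4 of Pcx L-/-, and the log2 fold change was 1.98 (SE 0.49, adjusted p = 0.0133). Since 80.6% of its 100-base stretches also occur in other genes, Gsta2 among them, the value of Gsta1 is uncertain. Gsta2 (-0.96, adjusted p = 0.092) and Gsta4, which detoxifies 4-hydroxynonenal (-0.76, adjusted p = 0.127), were not called with all libraries and were called without library 1 (-1.54 and -1.28, adjusted p = 0.00158 and 0.00117). Gstk1, the mitochondrial and peroxisomal kappa enzyme, had 1734, 1991, 1862 and 1371 normalized counts in control and 1423, 762, 856.2 and 845 in Pcx L-/- liver. Library 1 of Pcx L-/- lay just above control 4, and the log2 fold change was -0.84 (SE 0.20, adjusted p = 0.00984).

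Of the 7 mu class genes 4 were higher and none was lower. Gstm3 had 173, 145, 93.5 and 76.4 normalized counts in control and 354, 323, 326 and 176 in Pcx L-/- liver. The lowest Pcx L-/- value was just above the highest control, and the log2 fold change was 1.25 (SE 0.27, adjusted p = 0.00717). Gstm4 had 775, 640.4, 765 and 976 normalized counts in control and 1215, 1767, 1404 and 1567 in Pcx L-/- liver, again without overlap, and a log2 fold change of 0.92 (SE 0.15, adjusted p = 0.00201). The other two calls were smaller and their ranges overlapped. Gstm6 had 626, 533, 464 and 443 and 819.04, 615, 747 and 949 normalized counts in control and Pcx L-/- liver, with a log2 fold change of 0.59 (SE 0.15, adjusted p = 0.0151). Gstm2 had 599, 529.9, 485 and 453 and 805, 768, 578 and 663, with a log2 fold change of 0.44 (SE 0.13, adjusted p = 0.0293). Leaving out 1 library ended the call of Gstm6 in 2 cases (control 3 or Pcx L-/- 4) and that of Gstm2 in 6 of 8.

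Gstm1, which made up 84.8% ± 3.48 (SD, n = 4) of the summed mu FPKM in control, was not called. It had 18347, 16782, 13786 and 9453 normalized counts in control and 17591, 16760.3, 12167 and 16299.6 in Pcx L-/- liver. The values overlapped over most of their range, and the log2 fold change was 0.11 (SE 0.21, adjusted p = 0.745). The 3 mu genes without a call ranged from -0.23 for Gstm7 to 0.36 for Gstm5. The 4 higher genes were minor members of the class by FPKM.

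Both omega class genes were higher. Gsto1, an enzyme that reduces dehydroascorbate and arsenic species, had 2140.2, 2161, 2174 and 1901 normalized counts in control and 2514, 2984, 2553 and 3179 in Pcx L-/- liver. The 2 groups did not overlap, but the difference was small, with a log2 fold change of 0.42 (SE 0.12, adjusted p = 0.0201). It lost the call with a replicate block (adjusted p = 0.0585) and without Pcx L-/- 2 or 4 (0.0631 and 0.0759). Gsto2 (ENSMUSG00000025069, chr19:47865534-47886324), its neighbour on chromosome 19, was nearly silent in control, with 1.82, 1.08, 0 and 3.39 normalized counts, and had 14.2, 16.0, 17.9 and 20.8 in Pcx L-/- liver. All 4 Pcx L-/- values lay above all controls. The log2 fold change of 3.49 (SE 0.52, adjusted p = 0.00132) rests on few reads. Gsto2 passed the filter on reads only through the genotype in which it was high, so its call is a description and no independent support. The log2 fold change was 3.25 by DESeq2 with apeglm shrinkage and 0.79 by limma on log2(FPKM + 1), a scale that understates the change of genes with low FPKM.

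Of the 3 pi class genes, which lie side by side on chromosome 19, 1 was lower and 1 was higher. Gstp1 (ENSMUSG00000060803, chr19:4035407-4037985), the main pi enzyme of mouse liver, had 20696, 11387, 14388 and 11899 normalized counts in control and 9318, 6101, 4703 and 5402 in Pcx L-/- liver. Every Pcx L-/- value was below every control, with a log2 fold change of -1.19 (SE 0.25, adjusted p = 0.00585). Gstp3 (ENSMUSG00000058216, chr19:4057477-4059569), 22.1 kb away on the same strand, had 112, 111, 76.3 and 78.1 normalized counts in control and 342, 458, 453 and 634 in Pcx L-/- liver. All Pcx L-/- values were above all controls, and the log2 fold change was 2.31 (SE 0.21, adjusted p = 0.000159), the smallest p of the 45 genes. Gstp2, between them, had a log2 fold change of -0.81 (SE 0.29, adjusted p = 0.0552). By FPKM, Gstp3 made up 0.714% ± 0.216 (SD, n = 4) of the pi class in control and 7.90% ± 3.14 (SD, n = 4) in Pcx L-/- liver. Of the 100-base stretches of Gstp1, 25.1% also occur in Gstp2 or a pseudogene, whereas those of Gstp3 occur in no other gene. For Gstp2 the share that also occurs in Gstp1 or the pseudogene is 46.9%. Gstp2 had only 15.1 to 42.8 normalized counts over all libraries, so its value is uncertain.

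None of the tested genes of the theta, zeta and membrane-bound classes was called. Mgst1, a glutathione transferase and peroxidase of the endoplasmic reticulum and outer mitochondrial membrane, had the highest FPKM of all 66 genes. It had 39445, 42739, 36720.2 and 25416 normalized counts in control and 37263, 22992, 23147 and 25871 in Pcx L-/- liver. Library 1 of Pcx L-/- was within the range of control and the other 3 were near or below control 4. The log2 fold change was -0.40 (SE 0.21, adjusted p = 0.185), and -0.59 (adjusted p = 0.0202) without library 1. Gstz1, the maleylacetoacetate isomerase of tyrosine breakdown, had 11015, 11244, 10591 and 8211 normalized counts in control and 11509.9, 7101, 7717 and 7811 in Pcx L-/- liver. Its log2 fold change was -0.27 (SE 0.18, adjusted p = 0.293), and -0.45 (adjusted p = 0.0225) without library 1. Gstt1, which acts on small halogenated compounds, had 2116, 3011, 2179 and 1663 normalized counts in control and 2746, 1787, 2118 and 1952 in Pcx L-/- liver, with full overlap and a log2 fold change of -0.06 (SE 0.19, adjusted p = 0.838). The highest of the theta values was that of Gstt2, with a log2 fold change of 0.40 (SE 0.18, adjusted p = 0.127). With counts scaled by library size alone Gstt2 was called higher (0.66, adjusted p = 0.0155). The lowest of the theta values was that of Gstt3, with 1031, 1162, 1122 and 729.8 normalized counts in control and 1157, 233, 408 and 263 in Pcx L-/- liver. Library 1 was at the level of control and the other 3 were below every control. With all libraries the log2 fold change was -0.98 (SE 0.43, adjusted p = 0.115), and without library 1 it was -1.75 (adjusted p = 0.000154).

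By summed FPKM, the membrane-bound Mgst genes and the pi class stood highest in control, and the Ugt1a genes lowest. The FPKM of the Ugt1a genes may be understated because of their shared exons, so their rank is uncertain. The sum of the Ugt genes was 1135 ± 133 (SD, n = 4) in control and 753 ± 132 (SD, n = 4) in Pcx L-/- liver, a ratio of 0.663. The Sult sum was 607 ± 52.0 (SD, n = 4) and 483 ± 80.4 (SD, n = 4), a ratio of 0.796. That of all Gst and Mgst genes was 4461 ± 1041 (SD, n = 4) and 4032 ± 460 (SD, n = 4), a ratio of 0.904. Within the Gst classes the ratio ran from 0.544 for alpha and 0.560 for pi to 1.36 for mu and 1.65 for omega. The mu sums overlapped, at 451 to 899 in control and 822 to 1087 in Pcx L-/- liver. They were mostly Gstm1 (84.8% in control and 80.9% in Pcx L-/- liver), which was not called. The alpha sums overlapped too, at 160 to 377 in control and 119 to 252 in Pcx L-/- liver. FPKM are scaled by the library total, and counts scaled in that way had a median log2 fold change of 0.28 over all genes tested, against -0.01 with TMM. As sums of TMM-normalized counts not divided by length, the ratios were 0.598 for Ugt, 0.579 for Sult, 0.765 for Gst, and, among the classes, 0.449 for alpha, 0.467 for pi, 1.14 for mu and 1.35 for omega. No test was made on these sums.

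**Figure D4:**
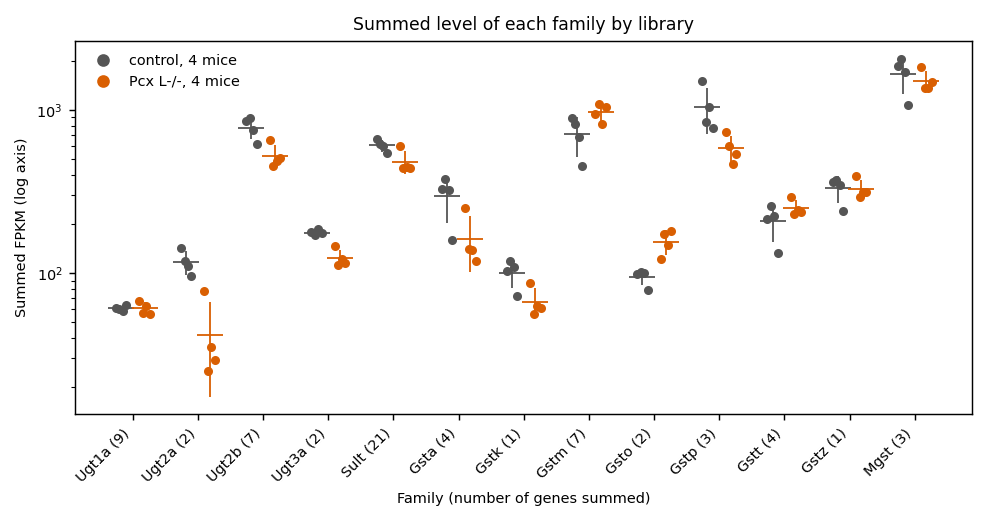
Summed FPKM of each family (logarithmic vertical axis) in the 4 control (grey) and 4 Pcx L-/- (orange) libraries, with the number of genes summed in parentheses; the horizontal dash is the mean and the vertical line the SD. The Ugt2a, Ugt3a and pi sums of Pcx L-/- liver lie below all controls, the omega sum lies above them, and the other families overlap or nearly so.

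Of the 22 genes that were not tested, Ugt2a1 is not in the count table and the other 21 had few or no reads. Ugt1a10 had 32 reads in the 4 controls and 12 in the 4 Pcx L-/- libraries. All of its control values were above all Pcx L-/- values, and an exact two-sided permutation test on log2(normalized count + 1) gave p = 0.0286, the smallest that 4 mice against 4 allow. Sult1e1, the estrogen sulfotransferase, had 50 and 35 reads (exact permutation p = 0.143), and Sult3a1 had 12 and 1 (exact permutation p = 0.143). Ugt2b38 had 88 and 28 reads (exact permutation p = 0.657) and ranged in control from 0 to 39.1 normalized counts. The others in the table had at most 35 reads over all libraries, and differences in them were not detectable at this depth.

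Genes that supply or turn over the co-substrates, export the conjugates or cleave them were taken from lists. Their counts are to be read beside the 14.1% of all genes tested that were higher and the 13.5% that were lower. For UDP-glucuronate, 3 of 7 genes were higher and 2 lower (median log2 fold change 0.19). The transporter Slc35d1, which carries UDP-glucuronate into the endoplasmic reticulum, had 2549.9, 2503, 2196 and 1970.4 normalized counts in control and 3749.8, 3981, 3789 and 3402 in Pcx L-/- liver, without overlap. Its log2 fold change was log2 fold change 0.69, adjusted p = 0.00254. Slc35a3, a carrier of UDP-N-acetylglucosamine, fell (log2 fold change -0.54, adjusted p = 0.00598), and the phosphoglucomutase Pgm2 rose (log2 fold change 1.08, adjusted p = 0.00242). The far more abundant phosphoglucomutase Pgm1 fell (log2 fold change -0.72, adjusted p = 0.0105). Mean normalized counts in control and Pcx L-/- liver were 4153 and 2524 for Pgm1, and 99.1 and 208 for Pgm2. Of the 9 genes of PAPS supply 1 was lower and none was higher (median -0.17). The gene called was Slc26a1, a hepatocyte sulfate transporter (log2 fold change -0.86, adjusted p = 0.00521), while the PAPS synthase Papss2 was not (log2 fold change -0.50, adjusted p = 0.128). In glutathione supply and turnover, a list that also holds genes of its breakdown, 1 of 10 tested genes was higher and 3 were lower (median -0.43). Gclm, the modifier subunit of the rate-limiting glutamate-cysteine ligase, had 3832, 4119.7, 3840.5 and 3449 normalized counts in control and 2894, 2533, 2369 and 2454 in Pcx L-/- liver. There was no overlap, with a log2 fold change of log2 fold change -0.57, adjusted p = 0.00482. Ggct, a cyclotransferase of gamma-glutamyl peptides, rose (log2 fold change 1.21, adjusted p = 0.00139), and the 5-oxoprolinase Oplah fell (log2 fold change -0.62, adjusted p = 0.0426).

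Among 10 transporters that export conjugates and drugs, 3 were higher and 2 lower (median -0.20). The counts here, too, stand beside 14.1% higher and 13.5% lower over all genes tested. Abcc4, a basolateral exporter of sulfated bile acids and steroids, had 69.2, 55.3, 76.3 and 100.1 normalized counts in control and 239.7, 1733, 987 and 1006 in Pcx L-/- liver. Library 1 was the lowest of the Pcx L-/- values and still above all controls, and the log2 fold change was log2 fold change 3.74, adjusted p = 0.000846. The P-glycoprotein genes Abcb1a (log2 fold change 1.41, adjusted p = 0.00082) and Abcb1b (log2 fold change 1.67, adjusted p = 0.00402) rose as well. The genes that were lower were Abcc3 (log2 fold change -0.91, adjusted p = 0.0155) and Abcc6 (log2 fold change -0.99, adjusted p = 0.00733). Their values overlapped between genotypes, and their mean normalized counts in control were 10051 and 4269. Of 7 tested genes that reverse conjugation or process glutathione conjugates, 3 were lower and none was higher (median -0.38). These were beta-glucuronidase Gusb (log2 fold change -0.66, adjusted p = 0.00838), the aminoacylase Acy3 (log2 fold change -0.80, adjusted p = 0.0174) and the dipeptidase Dpep1 (log2 fold change -1.08, adjusted p = 0.0386). Of 22 tested genes of other conjugating enzymes, such as acetyl- and acyltransferases, 7 were lower (median -0.37). Among these were histamine N-methyltransferase, Hnmt (log2 fold change -1.63, adjusted p = 0.00405), and the acyltransferase-like Keg1 (log2 fold change -1.62, adjusted p = 0.00082).

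Of 22 regulators of these genes 2 were higher and 5 lower (median -0.27), so that 31.8% were called, near the 27.6% of all genes tested. The dioxin receptor Ahr fell (log2 fold change -0.47, adjusted p = 0.013), as did Bach1, a repressor at antioxidant response elements (log2 fold change -0.74, adjusted p = 0.00814), and Cux2, a repressor known from female mouse liver (log2 fold change -2.81, adjusted p = 0.00364). Of 13 tested Nrf2 targets outside the Gst families 4 were higher and 3 lower (median 0.01). Sulfiredoxin, Srxn1, had 999, 1006, 923 and 1103 normalized counts in control and 1581, 2656, 1819.7 and 2419 in Pcx L-/- liver. It did not overlap between genotypes, with a log2 fold change of log2 fold change 1.07, adjusted p = 0.00133. Cbr3, a carbonyl reductase, also rose (log2 fold change 3.15, adjusted p = 0.00813), while Gclm, which belongs to this list too, fell as given above. Cbr3 had few reads, with 12.7, 3.25, 11.8 and 10.2 normalized counts in control and 21.7, 211, 48.2 and 59.5 in Pcx L-/- liver. The value of Pcx L-/- 2 was far above the others, so the size of the change is uncertain.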

How the data were processed

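Liver RNA-seq of 4 control and 4 Pcx L-/- mice was analysed. Per the labels, the authors aligned reads to mm10 (GRCm38), and the submitters' processing notes name STAR 2.5, HTSeq 0.6.1 and DESeq2. Annotation release and strand setting were not given in the sources used here. As files, the authors deposited raw counts per Ensembl gene and FPKM, and 100% of the 142384 FPKM above 0 equal count over 1 length per gene and library total (relative tolerance 1e-06). Totals of 12016242 to 20023108 reads set the precision for genes with few reads.

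Genes were named from GENCODE M21, which holds 97.8% of the identifiers. The members and lists were chosen with earlier results of these data known. The main test was edgeR 4.0.16 in R 4.3.3 (TMM, filterByExpr at min.count 10 and min.total.count 15, quasi-likelihood, genotype only, Benjamini-Hochberg over 13168 genes). SE are approximate, from the F statistic. Per family, values were printed for up to 4 called genes in each direction with the smallest p and for the gene with the highest mean FPKM, and otherwise for the ends of the range of genes not called. Ugt1a1, Ugt2b35, Sult2a7, Pgm1, Abcc3 and Abcc6 were added after their values were seen. Of each list up to 3 genes with the smallest p were named. 1 of these is not reported here. Untested genes were compared by an exact two-sided permutation test, whose smallest p is 0.0286. The steps were tested on simulated data. The alternatives tried comprised other scalings, a stricter and no filter, DESeq2 1.42.0 (also with apeglm 1.24.0), limma 3.58.1 on log2(FPKM + 1) and log2(FPKM + 0.1), a replicate block, mouse number series as a covariate, each library left out and, added after seeing the data, only mice numbered in the 800s.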

Additional observations from a re-analysis of the deposited data

Results flagged for a closer look

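Among 56 sets of 4 libraries (28 genes in 2 genotypes), 11 held a library whose gap to the nearest other, divided by the whole range of the set, exceeded Dixon's critical value for 4 values, and chance flags about 1 in 20. The sets come from the same libraries, and the genes were picked by their calls or their FPKM, so the flags are not independent. In 10 of the 11 the library was Pcx L-/- 1. The value was 0.9188 for Gsta3, where this library had 9774 normalized counts and the other 3 had 4235 to 4685. It was 0.9041 for Ugt2b36, with 5566 against 2171 to 2496, and 0.8898 for Ugt3a1, with 506 against 264 to 291. For Gstk1 the value was 0.8572 (1423 against 762 to 856.2), for Ugt2a3 0.8448 (2884 against 771 to 1099) and for Ugt2b5 0.8355 (9048 against 4456 to 5211). For Ugt1a6b it was 0.8328 (298 against 129.9 to 158) and for Sult1b1 0.8319 (348 against 172 to 201). In these 8 called genes the library was the nearest to control. Of the genes not called, Gstz1 had a value of 0.839 (11509.9 against 7101 to 7811) and Sult1a1 one of 0.9268 (9624 against 6681 to 6896). The eleventh was control 4 for Gsto1, with a value of 0.8751 (1901 normalized counts against 2140.2 to 2174 in the other 3 controls).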

How the results depend on the processing

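None of the 45 tested genes that was called changed its direction under any of the 20 alternatives. The number of these genes called was 16 to 28 when 1 library was left out, lowest without Pcx L-/- 4 and highest without Pcx L-/- 1. The number higher was then 5 to 8, and 5 without Pcx L-/- 4. Over all genes the count called was 2109 to 4602, with 2295 without Pcx L-/- 2 and 2109 without Pcx L-/- 4 against 3632. Scaling by library size alone shifted the median of all genes to 0.28 and the share of higher genes among those called from 51.1% to 81.8% (82.3% and 82.1% by limma on FPKM), with 12 of the conjugation genes higher and 13 lower. DESeq2 called 25 (8 higher and 17 lower). With a replicate block 24 were called (7 higher and 17 lower, 21 of them in common) and 2975 over all genes. Libraries with the same number were not paired by the labels, and their deviations correlated at -0.127 to 0.0958, with 1 of 4 controls best with its own number. Calls that were lost under some alternatives were those of Gsta3, Gstm2, Gstm6, Gsto1, Sult1b1, Sult5a1 and, where a stricter filter left it untested, Gsto2. Genes with few reads, such as Gsta1 and Gsto2, are limited by depth.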
